A study of Homo sapiens with 6 samples.

Results

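FOS, FOSB, FOSL1, FOSL2, JUN, JUNB, JUND, EGR1, EGR2 and EGR3 encode transcription factors of the immediate early response, and 9 of these 10 genes were measured among the 18417 genes of the array. They were taken as the probe sets that the platform annotation pairs with a single gene, 1 probe set per gene. EGR2 had none, so its expression is not analysed here. Total RNA came from MDA-MB231, an established line of metastatic breast cancer cells. The tested cells were 1 clone with a stable G9a knockdown (3 arrays), and the control was the parental line with no treatment (3 arrays). Both were grown in DMEM/F12 with 10% serum and harvested with trypsin during logarithmic growth. The labels name no stimulation, time course or vector control, so the knockdown cannot be told apart from the choice of a clone, and nothing says that the arrays of a group came from separate cultures. The p-values therefore measure the spread between these arrays, which may be technical.

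Immediate early genes are transcribed within minutes of a growth factor, serum or stress signal, without new protein synthesis. FOS and JUN proteins carry a basic leucine zipper and bind DNA in pairs, together called AP-1: a FOS protein needs a JUN partner, whereas JUN proteins can also pair with each other. EGR proteins bind GC-rich DNA through zinc fingers. MAP kinases drive the transcription of FOS and EGR1 through serum response factor (SRF) and its ETS-family partners, which bind at CArG boxes. In breast cancer cells of the basal type, FOSL1 is known as a prominent AP-1 subunit that promotes invasion. G9a, encoded by EHMT2, methylates lysine 9 of histone H3, a repressive mark.

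Values are the deposited log2 intensities. Differences are knockdown minus control with the standard error from limma, fitted on all 18417 genes, and a gene was called at a Benjamini-Hochberg adjusted p of 0.05. By this rule 3.05% of all genes were called, 1.28% higher and 1.78% lower in the knockdown, and the median difference of all genes was 0.03. EHMT2 itself read 9.66, 9.59 and 9.51 on the knockdown arrays, against 10.21, 10.27 and 9.93 on the control arrays (-0.55 ± 0.10, SE; adjusted p = 0.0259, and 0.0716 to 0.122 in the 5 fits that left out an array other than control replicate 3). Mesenchymal VIM lay at percentile 99.7 of mean intensity over all genes. CD44, EGFR and the epithelial keratin genes KRT8 and KRT18, also expected in this line, lay at percentiles 99.8, 91.9, 98.9 and 96.5. The genes listed as low in this line, ESR1, PGR, CDH1 and EPCAM, lay at percentiles 21.5, 7.42, 31.0 and 54.2. Levels of different probe sets compare only roughly. Of the 4 genes listed as low 1 passed, CDH1, encoding E-cadherin (0.45 ± 0.07, SE, adjusted p = 0.0177). This call was kept without control replicate 3 (0.0119) and lost without any other array (0.0525 to 0.0983). The summed log2 intensity of the 4 genes was 28.8 to 29.1 in the knockdown and 28.0 to 28.2 in control. Their part in the results was not tested. Of 4 leukocyte and 5 fibroblast markers none passed. Among the leukocyte markers CD68 lay at percentile 96.3 of mean intensity, and PTPRC, CD3E and ITGAM at 4.41, 14.6 and 23.0. The groups did not overlap for PTPRC, which was higher, and CD68, which was lower, beside 14.3% and 12.7% of all genes. Of 4 endothelial markers 1 passed, CDH5 (0.71 ± 0.12, SE; adjusted p = 0.0210, and above the threshold without control replicate 2 or any 1 knockdown array, up to 0.0869); their summed log2 intensity was 29.6 to 29.9 in the knockdown and 28.1 to 29.0 in control, and their part in the results was not tested. Without detection calls no marker could be placed at background. In a bulk sample, fewer cells with a transcript and less of it per cell cannot be told apart.

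EGR1 fell the most of the 9 genes. Its protein is a zinc finger activator induced by serum and growth factors. EGR1 read 10.33, 10.34 and 10.15 on the knockdown arrays and 11.05, 11.14 and 11.49 on the control arrays. The lowest control array lay 0.71 log2 above the highest knockdown array, so the groups were well apart, and control replicate 3 was the highest. The difference was -0.95 ± 0.12 (SE; 95% limits -1.22 to -0.68; adjusted p = 0.00977), 1.94-fold lower in the knockdown. Only 0.141% of all genes had a difference as low, which placed EGR1 26th from the lowest. With 1 array left out the difference ran from -1.04 to -0.82, and the call was lost when knockdown replicate 1 (adjusted p = 0.0506) or knockdown replicate 3 (0.0576) was the array left out.

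EGR3, a related zinc finger factor that growth signals also induce, lay close to 0. It read 7.44, 7.31 and 7.22 on the knockdown arrays, and 7.05, 7.47 and 7.44 on the control arrays, so the groups overlapped over most of their range. The difference was 0.0044 ± 0.12 (SE; 95% limits -0.27 to 0.28; adjusted p = 0.990). Its sign was not fixed: it was -0.04 after quantile normalization and -0.13 without control replicate 1, the lowest of the 6 arrays. The EGR1 minus EGR3 log2 ratio, a pair chosen after the values were seen, was 2.89 to 3.03 on the knockdown arrays and 3.67 to 4.05 on the control arrays, a change of -0.96. An exact two-sided permutation test of that ratio gave p = 0.1, the smallest that 3 arrays against 3 allow. The EGR1 groups lay 0.71 apart and the EGR3 arrays ranged only from 7.05 to 7.47, so this p was fixed by the choice of pair. It adds nothing to the values of the single genes.

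Within the FOS family, FOS fell, FOSB was lower without passing, and FOSL1 and FOSL2 lay near the median of all genes. FOS encodes c-Fos, the short-lived subunit that is typically induced first and most sharply. It read 8.40, 8.36 and 8.30 on the knockdown arrays and 8.78, 8.81 and 8.70 on the control arrays. The groups were 0.30 apart, several times their SDs of 0.05 in the knockdown and 0.06 in control, and control replicate 3, the highest for EGR1, was the lowest control here. The difference was -0.41 ± 0.06 (SE; 95% limits -0.55 to -0.27; adjusted p = 0.0164), 1.33-fold lower. FOS passed in 1 of the 6 fits that left out an array, the one without control replicate 3 (adjusted p = 0.0202), with adjusted p up to 0.0983 in the others, while the difference stayed between -0.44 and -0.38. With the replicate number as a block it was just past the threshold (adjusted p = 0.0494).

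FOSB, a close relative of FOS with a strong activation domain, read 8.02, 7.84 and 7.80 on the knockdown arrays and 8.15, 8.13 and 8.30 on the control arrays. The groups did not overlap, but the gap between them was 0.12, smaller than the range within either group. The difference of -0.31 ± 0.08 (SE; 95% limits -0.49 to -0.13) missed the threshold (adjusted p = 0.0807). It passed with array weights (0.00760), when low-intensity genes were left out (0.0477) and when the arrays were quantile normalized (0.0399).

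FOSL1 (Fra-1), which lacks the strong activation domain of FOS, read 12.02, 12.15 and 12.06 on the knockdown arrays, against 11.95, 12.02 and 12.08 on the control arrays. The groups overlapped. Its difference was 0.06 ± 0.07 (SE; 95% limits -0.09 to 0.21; adjusted p = 0.668). FOSL2 (Fra-2) read 12.38 on each of the 3 knockdown arrays and 12.32, 12.36 and 12.33 on the control arrays. All knockdown arrays were higher, by a gap of 0.02, and the difference was 0.04 ± 0.05 (SE; 95% limits -0.08 to 0.17; adjusted p = 0.719). The limits leave room for a rise or fall of FOSL1 or FOSL2 up to those sizes. The FOS minus FOSL1 log2 ratio was also picked after the values were seen. It was -3.78 to -3.62 in the knockdown and -3.38 to -3.16 in control. The change was -0.47 (exact two-sided permutation p = 0.1, the smallest possible, over 2 such ratios). The FOS groups lay 0.30 apart and the FOSL1 arrays ranged only from 11.95 to 12.15, so this p too was fixed by the choice of pair.

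**Figure D1:**
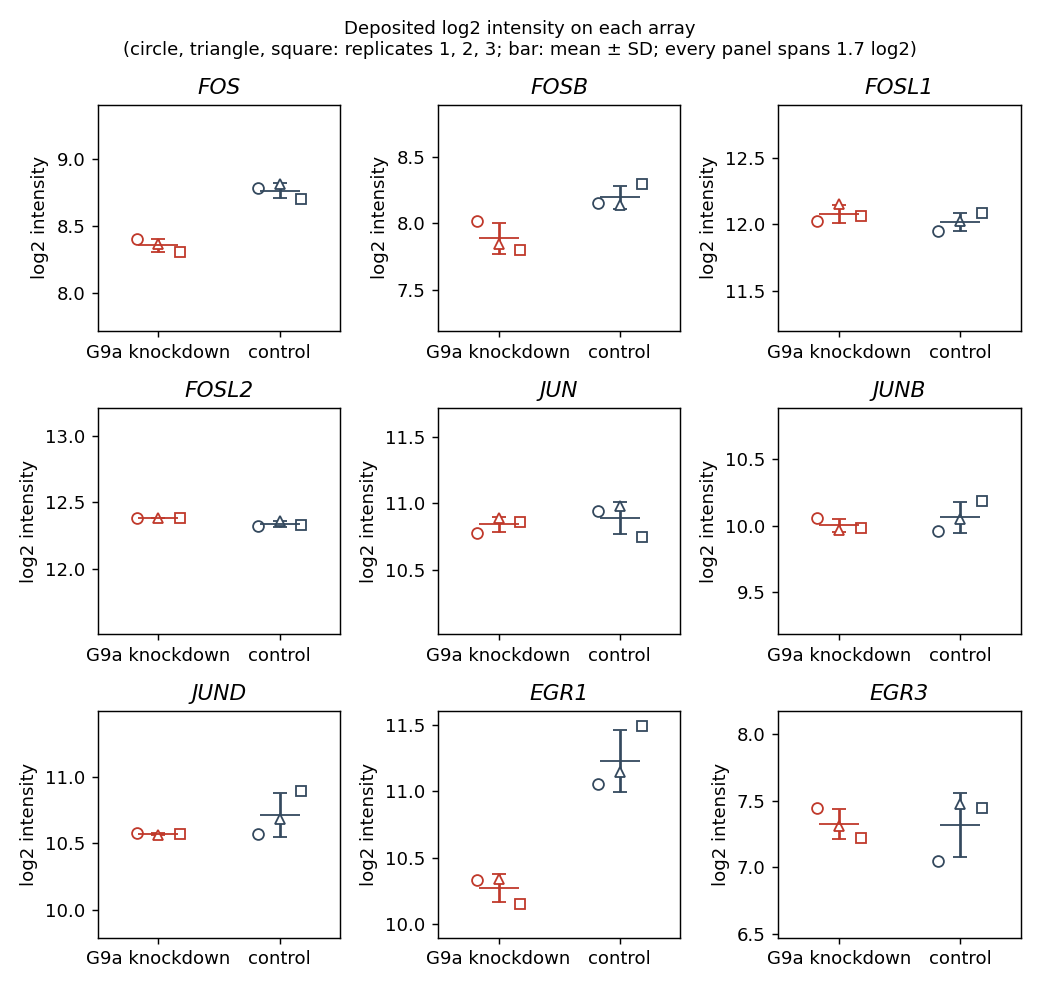
Log2 intensity of each measured gene on each array (y axis), with the 3 G9a knockdown arrays on the left and the 3 control arrays on the right of every panel; bars give the mean ± SD, and every panel spans the same log2 range. EGR1, FOS and FOSB are lower on all knockdown arrays, the FOSL2 groups lie 0.02 apart, and the groups overlap for FOSL1, JUN, JUNB, JUND and EGR3.

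None of the 3 JUN genes, which supply the obligatory partners of the FOS proteins, passed the test. JUN, encoding c-Jun, read 10.78, 10.89 and 10.86 on the knockdown arrays and 10.94, 10.98 and 10.75 on the control arrays. Control replicate 3 was the lowest of all 6 arrays. The difference was -0.05 ± 0.08 (SE; 95% limits -0.22 to 0.13; adjusted p = 0.773), and -0.12 without control replicate 3. JUNB, often a weaker activator that restrains c-Jun, read 10.06, 9.97 and 9.98 on the knockdown arrays and 9.96, 10.05 and 10.19 on the control arrays. These groups overlapped too, and the difference was -0.06 ± 0.07 (SE; 95% limits -0.24 to 0.11; adjusted p = 0.683). It was -0.0019 without control replicate 3.

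JUND, the most steadily expressed JUN gene in most cells, read 10.58, 10.56 and 10.57 on the knockdown arrays (SD 0.0094), and 10.57, 10.68 and 10.89 on the control arrays (SD 0.16). The knockdown arrays lay at the level of control replicate 1, below the other control arrays. The difference was -0.14 ± 0.09 (SE; 95% limits -0.34 to 0.05; adjusted p = 0.396), and -0.06 without control replicate 3. For JUNB and JUND, as for EGR1 and FOSB, control replicate 3 was the highest of the 6 arrays (4 of 9 genes); for JUN it was the lowest.

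**Figure D2:**
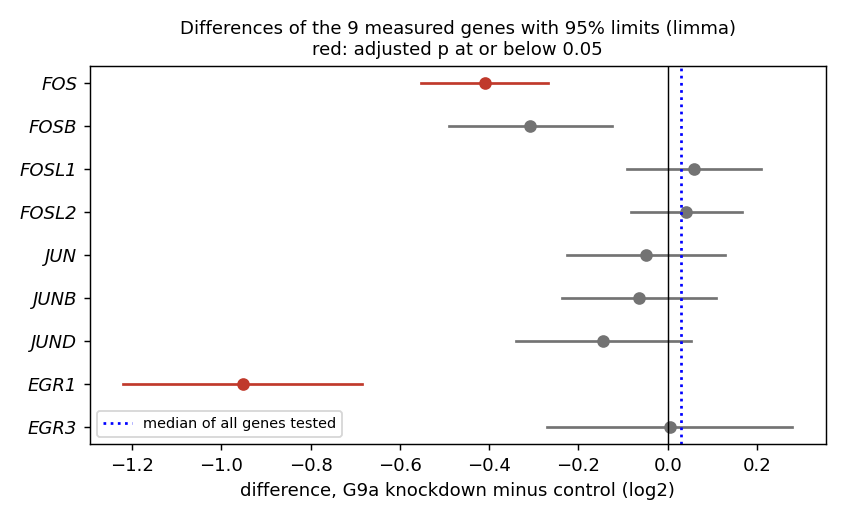
Difference between G9a knockdown and control (x axis, log2) for the 9 measured genes, each point with its 95% limits from limma; red marks an adjusted p at or below 0.05 and the dotted line the median of all genes (0.03). EGR1 (-0.95) and FOS (-0.41) are red, and the limits of FOSB also lie below 0 although it did not pass after adjustment over all genes.

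Of the 9 genes, 0 rose, 2 fell and 7 did not pass, beside 1.28% and 1.78% of all genes. The groups did not overlap for 3 genes that were lower and 1 that was higher, beside 12.7% and 14.3% of all genes. The median of the 9 differences was -0.06. EGR1 passed in 13 of 15 alternative settings, FOS in 10 and FOSB in 3, and the other 6 genes in none. EGR1, FOS, FOSB and the JUN genes stayed below 0 and FOSL1 and FOSL2 above 0 in every setting, whereas EGR3 changed sign in 5. Not every setting could change a sign. Each gene had 1 probe set, so the probe set rules left its difference as it was. The variance trend, the filter on low genes and the replicate block also change only the p-value.

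**Figure D3:**
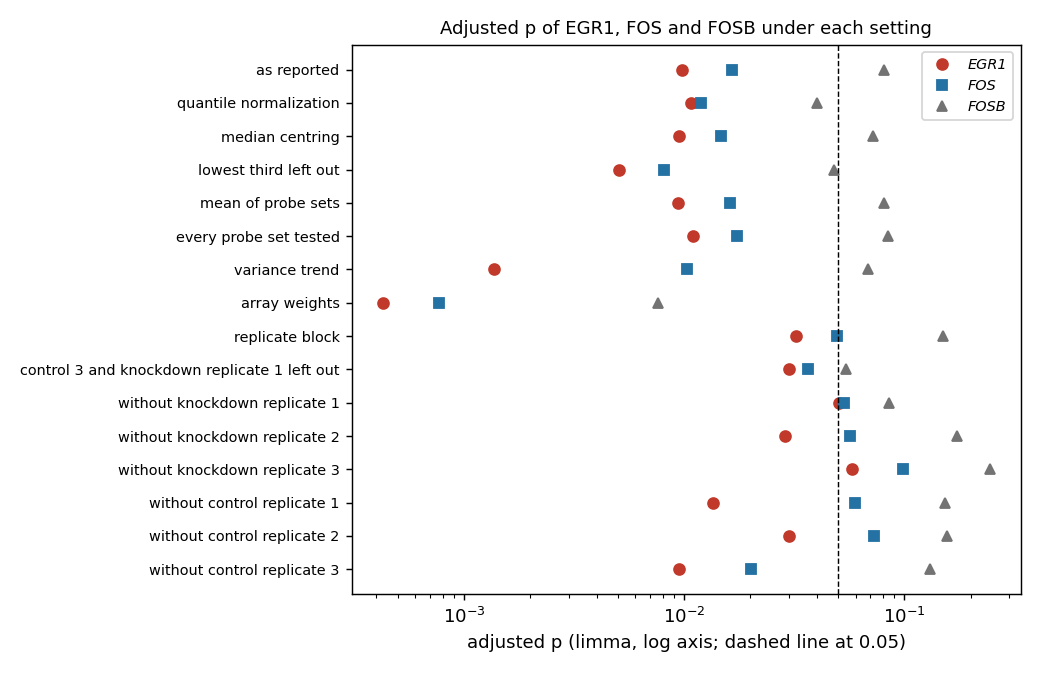
Adjusted p from limma (x axis, log scale) for EGR1, FOS and FOSB as reported and under each of 15 alternative settings (rows); the dashed line marks 0.05. EGR1 is to the right of the line without knockdown replicates 1 or 3, FOS in 5 of the 6 fits that leave out 1 array, and FOSB is left of it with array weights, without low-intensity genes, or with quantile normalization.

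To show the DNA next to these genes, the 250 bases upstream of the annotated start are given for both genes that fell, for FOSB and, as a JUN family gene that did not pass, for JUN (RefSeq, GRCh38.p14, 5′ to 3′ on the gene's strand). Capitals mark CArG boxes and the letters TGACG, the core of a cAMP response element, on either strand.
EGR1, chr5:138465229-138465478, plus strand: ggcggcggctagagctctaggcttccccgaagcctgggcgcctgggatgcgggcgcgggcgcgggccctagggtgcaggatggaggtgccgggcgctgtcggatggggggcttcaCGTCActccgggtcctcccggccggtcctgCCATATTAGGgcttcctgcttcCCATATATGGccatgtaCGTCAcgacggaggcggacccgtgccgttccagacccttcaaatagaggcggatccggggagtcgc
FOS, chr14:75278578-75278827, plus strand: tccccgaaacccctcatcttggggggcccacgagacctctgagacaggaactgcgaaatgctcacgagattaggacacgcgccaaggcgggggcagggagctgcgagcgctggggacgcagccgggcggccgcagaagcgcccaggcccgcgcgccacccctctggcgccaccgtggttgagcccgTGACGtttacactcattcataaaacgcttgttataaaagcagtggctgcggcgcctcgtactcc
FOSB, chr19:45467746-45467995, plus strand: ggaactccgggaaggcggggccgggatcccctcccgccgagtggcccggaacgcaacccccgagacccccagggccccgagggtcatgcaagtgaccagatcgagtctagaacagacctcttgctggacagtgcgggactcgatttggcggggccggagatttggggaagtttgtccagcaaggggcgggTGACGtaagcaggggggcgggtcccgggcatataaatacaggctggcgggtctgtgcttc
JUN, chr1:58784048-58784297, minus strand: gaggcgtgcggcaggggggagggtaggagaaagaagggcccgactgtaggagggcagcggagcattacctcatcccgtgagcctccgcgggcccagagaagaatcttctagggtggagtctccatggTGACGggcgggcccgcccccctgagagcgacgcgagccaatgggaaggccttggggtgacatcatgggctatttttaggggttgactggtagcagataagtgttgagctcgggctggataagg

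The EGR1 window held 2 CArG boxes, CCATATTAGG at -105 to -96 and CCATATATGG at -83 to -74, counted back from the base before the start as -1; 1.16% of 35116 RefSeq promoter windows of the same length held 1 or more. No CArG box was found in the windows of FOS, FOSB, FOSL2, JUN, JUNB or JUND. TGACG on either strand was found in the windows of all these genes, at -64 to -60 for FOS, at -135 to -131 and -66 to -62 for EGR1, and in 21.2% of all windows. In JUND it included a full TGACGTCA (1.65% of windows), which contains TGACG on both strands. TATAAA was found upstream of FOS, FOSB and JUNB (10.7% of windows). GCGNGGGCG, an EGR binding sequence, was found in EGR1 alone of the 7 genes (8.41%). CCGGAA, an ETS binding sequence, was found in FOSB alone (14.5%). TGANTCA, an AP-1 binding sequence, was found in none of the 7 (6.57%). That pattern does not cover longer variants, such as the tgacatca in the JUN window. These are matches of letters, and a missing match says only that the letters are not in this window. CArG boxes were not particular to EGR1: a window of EGR2, which was not measured, held CCATATATGG at -71 to -62. EGR3 and FOSL1 had no window in this search.

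Related genes were read from lists that were compiled with earlier results of these data known, so their counts describe the lists and support nothing further. Across 79 related genes, 1 rose, 2 fell and 76 did not pass, again beside 1.28% and 1.78% of all genes, and the groups did not overlap for 24 that were lower and 8 that were higher (beside 12.7% and 14.3%). Among 23 measured immediate early genes other than the FOS, JUN and EGR families, 0 rose, 1 fell and 22 did not pass, with a median of -0.09. The gene that fell was HBEGF, encoding a ligand of the EGF receptor. It read 12.04, 12.12 and 12.09 on the knockdown arrays and 12.49, 12.41 and 12.47 on the control arrays, with tight and separate groups (-0.37 ± 0.06, SE; adjusted p = 0.0195). The HBEGF call was kept without control replicate 3 (0.0324) and lost without any other array, with adjusted p from 0.0564 to 0.0983. The groups did not overlap for 9 lower and 2 higher genes of this list.

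DUSP1, a phosphatase that switches off MAP kinases and was picked after its values were seen, had the lowest value of that list without passing. It read 11.26, 11.30 and 11.28 on the knockdown arrays and 11.75, 11.66 and 12.37 on the control arrays (-0.65 ± 0.16, SE; adjusted p = 0.0786). Control replicate 3 stood well above the other arrays, and without it the difference was -0.42 and passed (0.0215). The same array stood apart over the whole list: relative to each gene's mean over the 6 arrays, it averaged 0.20 higher, against -0.01 and -0.0023 on control replicates 1 and 2 and -0.08 to -0.03 on the knockdown arrays. Without it 2 genes of the list passed as lower.

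Upstream of the FOS and EGR1 promoters, SRF, its cofactor gene MRTFB and the ternary complex factor genes ELK1, ELK3 and ELK4 gave no call in either direction (5 genes, median 0.13); the highest values were those of MRTFB (0.17, adjusted p = 0.414) and ELK1 (0.16, 0.268). None of 10 measured kinase genes, listed for action on FOS and JUN proteins directly or through other kinases, passed. Of these, MAPK9, encoding JNK2, was at -0.31 (adjusted p = 0.118) and RPS6KA5, encoding MSK1, at -0.24 (0.316). None of 13 other AP-1 and dimer partner genes passed. The lowest were ATF3, a stress-induced factor that pairs with JUN proteins (-0.42, adjusted p = 0.118), and MAFF, a small MAF protein gene (-0.36, 0.0659). Without control replicate 3, ATF3 was at -0.27. The corepressor genes of EGR proteins gave no call either: NAB1 was at -0.19 (adjusted p = 0.293) and EGR4, the remaining family gene, at 0.15 (0.476).

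Downstream, 15 AP-1 target genes included 1 that rose and 1 that fell, and 13 did not pass (median -0.07). The collagenase gene MMP13 rose (6.88, 7.00 and 6.87 in the knockdown, 6.57, 6.27 and 6.49 in control; 0.47 ± 0.09, SE; adjusted p = 0.0315). The stromelysin gene MMP3 fell (6.96, 6.89 and 6.74 in the knockdown, 7.17, 7.23 and 7.28 in control; -0.36 ± 0.07, SE; adjusted p = 0.0404). With 1 array left out, MMP13 passed only without control replicate 1 (0.0421, otherwise up to 0.114), and MMP3 in none of 6 fits (0.0693 to 0.150). Both probe sets were dim, at percentiles 20.4 and 25.7 of mean intensity, and neither was tested when low-intensity genes were left out. The cytokine genes CXCL8 (-1.49, adjusted p = 0.0558) and IL6 (-0.61, 0.0609), named after their values were seen, had larger differences without passing, and without control replicate 3 were at -1.02 (0.00601) and -0.43 (0.0319). None of 10 measured EGR1 target genes passed (median -0.03); the tissue factor gene F3 was at -0.22 (adjusted p = 0.116) and TGFB1 at -0.13 (0.473).

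**Figure D4:**
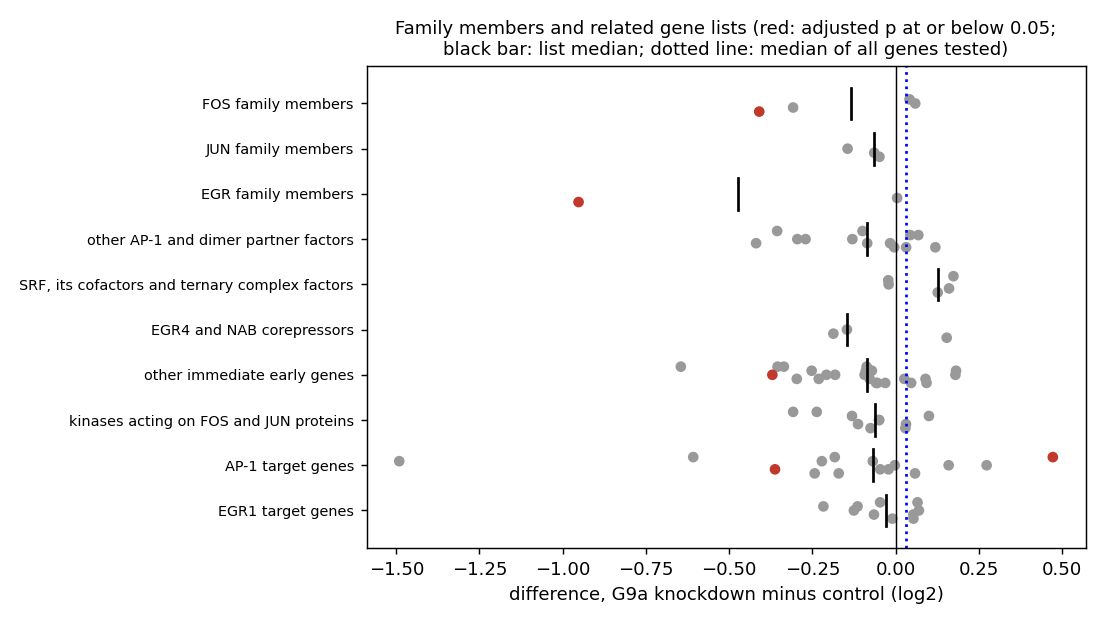
Difference between G9a knockdown and control (x axis, log2) for each gene of the FOS, JUN and EGR families and of 7 related lists (rows); red points passed at an adjusted p of 0.05, black bars are list medians and the dotted line is the median of all genes (0.03). Red points are EGR1, FOS, HBEGF and MMP3 on the left and MMP13 on the right; the grey point at -1.49 is CXCL8.

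Of the 10 tested genes on each side of EGR1 in the RefSeq gene order of chromosome 5, 4 passed as lower and 0 as higher, beside 1.78% and 1.28% of all genes. Negative values were found for 19 of the 20, beside 40.4% of all genes, and their median was -0.18, beside 0.03. The genes that passed were REEP2, SIL1 (-0.41, adjusted p = 0.0127), CTNNA1, encoding alpha-catenin (-0.32, 0.0264), and PAIP2; the lowest, PAIP2, a gene of translation control, was at -0.49 (adjusted p = 0.0141). The nearest on either side were REEP2 (-0.34, adjusted p = 0.0343) and ETF1, a translation release factor gene (-0.32, 0.0796). None of the 20 was as low as EGR1 (-0.95). The count of 4 depended on single arrays: it was 5 without control replicate 3, 2 without control replicate 1 or knockdown replicate 2, and 0 without control replicate 2 or knockdown replicates 1 or 3. It was 10 with array weights, 7 without low-intensity genes, 6 with a variance trend and 2 with the replicate block. Around FOS on chromosome 14, 16 of 20 neighbours had negative values, again beside 40.4% of all genes, the median was -0.06, and 1 passed as lower, GPATCH2L (-0.32, adjusted p = 0.0336), which passed in none of the fits without 1 array (0.0527 to 0.122). That count of 1 was 6 with array weights, 3 without low-intensity genes, 2 with a variance trend and 0 with the replicate block or without both control replicate 3 and knockdown replicate 1. The nearest were TMED10 (-0.05, adjusted p = 0.664) and JDP2, an AP-1 repressor gene (-0.30, 0.481; -0.01 without control replicate 3). None of those 20 was as low as FOS. The 20 neighbours of FOSB had a median of 0.03 and 0 calls. The part of these neighbourhoods in the values of EGR1 and FOS was not tested.

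**Figure D5:**
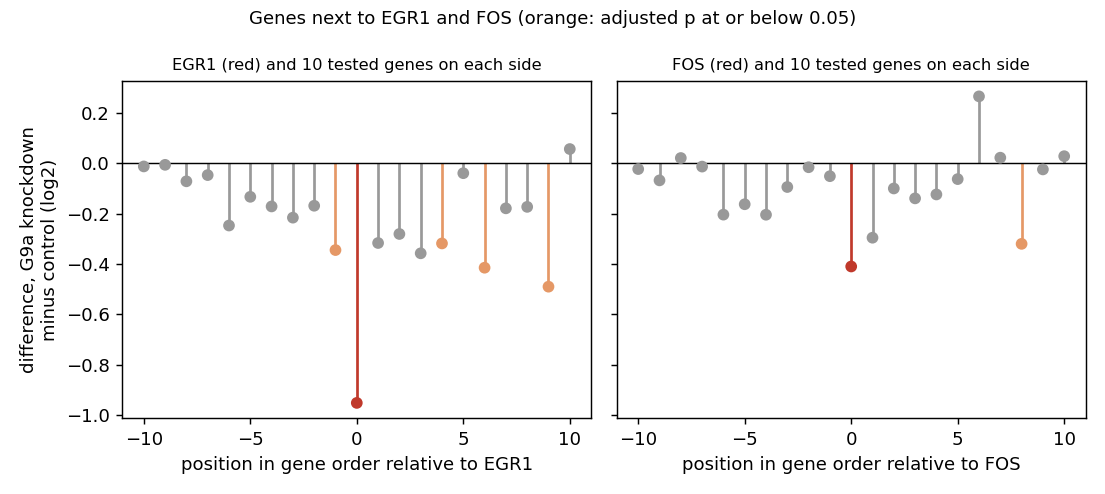
Difference between G9a knockdown and control (y axis, log2) for EGR1 (left) and FOS (right), in red, and the 10 nearest tested genes on each side in RefSeq gene order (x axis, position relative to the gene); orange marks neighbours with an adjusted p at or below 0.05. Nearly all neighbours of EGR1 lie below 0, and the red point is the lowest in each panel.

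The genes with profiles most like those of EGR1 and FOS were found by the root mean square distance between log2 values centred on each gene's mean, over the 6 arrays, as a description. For EGR1 they were LCN2, an iron-scavenging secreted protein gene (distance 0.02), CST1, a cystatin gene (0.03), and RAP1GAP2 (0.05), with differences of -0.98, -0.94 and -0.97. LCN2 read 8.55, 8.52 and 8.34 on the knockdown arrays and 9.28, 9.36 and 9.69 on the control arrays, with control replicate 3 highest as for EGR1. For FOS they were RTN1 (0.02), ZC4H2 (0.03) and APBB1 (0.03), with differences of -0.37, -0.39 and -0.41. RTN1 read 7.22, 7.15 and 7.10 on the knockdown arrays and 7.55, 7.58 and 7.46 on the control arrays. In this group control replicate 3 was the lowest control array, as for FOS. Both likenesses, to EGR1 and to FOS, follow from how the genes were picked.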

How the data were processed

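Single-colour arrays of 3 G9a knockdown and 3 control samples were used, grouped by their titles. The authors deposited 1 value per probe set and array, taken here as log2 intensity from the range alone (2.13 to 14.76; array medians 7.79 to 7.86); for summarisation and scaling, the method is not given in the sources used here. No detection calls or backgrounds were used, and precision is limited by the number of arrays.

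Of 33297 probe sets, 19460 carried 1 gene symbol, 1754 several and 12083 none. Symbols were updated by Entrez number through the RefSeq table of GRCh38.p14 (19429 found), and the probe set with the highest mean was kept per gene, leaving 18417 genes. Knockdown minus control was fitted with limma 3.58.1 in R 4.3.3 (lmFit, eBayes, two-sided, no covariate, 4 residual degrees of freedom), with Benjamini-Hochberg adjustment over all genes. On simulated arrays of 18417 genes, 73.0% of changes of 0.5 log2 and 97.0% of 1 log2 were recovered, with 15 false calls among 185. Whether these rates hold for the measured arrays, of which control replicate 3 stood apart over a whole gene list, was not tested.

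The members and lists were chosen with earlier results of these data known. Besides members, EHMT2, markers, up to 4 passing genes per related list (else the 2 largest differences), the 3 nearest profiles and the neighbours of members that passed were named; others are marked. Deviations from group means correlated at -0.246, 0.122 and 0.088 between arrays of the same replicate number. Between arrays of different number the correlations ran from -0.337 to 0.352. With 3 arrays per group these correlations constrain each other, so they cannot decide whether the arrays were paired. The labels and table give no batch. Alternatives were quantile normalization, median centring, a filter on low genes, 2 probe set rules, a variance trend, array weights, a replicate block and arrays left out.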

Additional observations from a re-analysis of the deposited data

How the results depend on the processing

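The number of calls depended strongly on the variance model and the arrays. The signs of the members depended less on the setting, though several settings could not change a sign. Over all genes, 235 were higher and 327 lower; these counts were 398 and 574 without low-intensity genes, 434 and 649 with a variance trend, 1718 and 1610 with array weights, 101 and 116 with the replicate number as a block, and 154 and 189 in the fit of 4 arrays that omitted both control replicate 3 and knockdown replicate 1. With 1 array left out they ran from 21 to 222 higher and from 23 to 313 lower. Of the FOS, JUN and EGR genes, 2 were called lower; the count was 3 with array weights, quantile normalization or no low-intensity genes, and ran from 0 (without knockdown replicate 1 or 3) to 2 (without control replicate 3), with 0 higher throughout the 15 alternatives. EGR1 lost its call in 2 of these and FOS in 5, each time with 1 array left out. The cause was not tested.

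Of the related genes, 1 was higher and 2 lower. Higher calls numbered 0 with quantile normalization, the replicate block or both arrays left out, 2 with a variance trend and 4 with array weights, and lower calls 5 without low-intensity genes, 9 with a variance trend, 15 with array weights and 0 with the replicate block. With 1 array left out, 0 to 1 were higher and 0 to 4 lower. EGR3, at 0.0044, was -0.042 after quantile normalization, -0.0015 with median centring, -0.13 with array weights, and from -0.13 to 0.081 with 1 array left out. Of 33 other genes given with a difference, 17 passed, each lost its call without some array, and 0 changed sign. Whether the replicate numbers pair the arrays could not be decided. With these numbers as a block in limma, EGR1 (adjusted p = 0.0321) and FOS (0.0494) passed. The filter on low intensity left out EGR3 and, among the other genes, CDH1, MMP3, MMP13, RTN1 and ZC4H2, and without detection calls the lower bound of measurable signal is unknown.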
